A study of Homo sapiens with 6 samples.

Results

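TGF-beta signalling genes were followed through 3 groups of A375 cells, an established BRAF-mutant human melanoma line. The set holds 9 genes, namely the ligand genes TGFB1, TGFB2 and INHBA, the ligand-binding gene LTBP1, the receptor genes TGFBR1 and TGFBR2, and the SMAD genes SMAD2, SMAD3 and SMAD7. They were taken by symbol after the NCBI Gene IDs of the count tables were matched to symbols. All 9 were found among the 28395 genes listed, and all 9 were among the 16381 genes that passed the filter on low counts and were tested. The cells were exposed for 72 h to 1 µM palbociclib, an inhibitor of the cell cycle kinases CDK4 and CDK6 (2 libraries), to 500 nM GSK3326595, which inhibits the methyltransferase PRMT5, an enzyme that modifies arginines (2 libraries), or to the vehicle, DMSO at 0.01%, without an inhibitor (2 libraries). The inhibitors were given at different doses, so a difference between them compares these conditions and not the drugs at a matched dose. The labels do not say that the replicates came from separate cultures, so the p-values below reflect how much these particular libraries vary, and that variation may be technical.

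TGF-beta ligands are secreted in a latent form, bound to their own propeptide and, through it, to latent TGF-beta binding proteins in the extracellular matrix. Once released, a ligand brings a type II receptor kinase together with a type I receptor kinase, which phosphorylates SMAD2 and SMAD3, and these enter the nucleus with SMAD4 and regulate target genes. SMAD7 is itself a target gene and inhibits the type I receptor. Activin A, a dimer of INHBA products, signals through SMAD2 and SMAD3 by its own receptors. In melanoma the pathway is known for a low-pigment, invasive cell state and for cytostasis in normal melanocytes.

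The libraries held between 16589153 and 20842099 counted reads. The treatments separated along principal components 1 and 2, which carried 52.3% and 25.3% of the variance. Counts of replicate libraries varied beyond sampling noise (chi-square divided by its degrees of freedom 5.12 for palbociclib, 9.90 for GSK3326595 and 7.76 for DMSO), so none was merged. Levels are given as CPM (the count scaled to a library of 1000000 reads) after TMM scaling. The melanocyte lineage factors SOX10 and MITF were present in every library (122.2 to 236.5 CPM and 57.4 to 87.3 CPM), whereas the pigment enzyme gene TYR was at 0.0582 CPM in 1 library and at 0 in the others. PMEL stayed at or below 2.45 CPM. Of the markers of other cell types, the pan-leukocyte gene PTPRC reached at most 0.116 CPM, the epithelial adhesion gene EPCAM 0.711 CPM and the endothelial cadherin gene CDH5 0.233 CPM. Other markers of the same lists were clearly present, among them KRT8 at 123.9 to 179.8 CPM, CSF1R at 2.79 to 3.96 CPM and PECAM1 at 1.34 to 4.01 CPM. The summed level of the 6 blood cell markers was 17.4 to 18.5 CPM in palbociclib libraries and 8.62 to 10.1 CPM in GSK3326595 libraries, against 8.17 to 8.42 CPM in DMSO libraries and LYZ made up 14.1 and 13.6 CPM of it with palbociclib. The 7 fibroblast and endothelial markers summed to 26.0 to 32.8 CPM with palbociclib, 28.9 to 35.2 CPM with GSK3326595 and 28.6 to 36.5 CPM with DMSO. The 5 epithelial markers summed to 131.7 to 137.0 CPM with palbociclib, 158.3 to 183.9 CPM with GSK3326595 and 159.7 to 168.2 CPM with DMSO, nearly all of it from KRT8. The part of these markers in the results below was not tested.

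Shown here are the bases just upstream of the 5 genes of the set that encode a ligand, a ligand-binding protein or the type II receptor. Each of these 5 passed the test in at least 1 comparison, as did SMAD2 and SMAD7, which are not shown. The sequences are a description, and a link between them and the responses was not tested. The windows are the 250 bases before the transcription start in RefSeq (GRCh38.p14, the same build as the hg38 of the counts), on the strand of the gene, from the first start the table lists. All 9 genes had such a window. Further starts are listed for LTBP1, TGFBR2, TGFBR1, SMAD2, SMAD3 and SMAD7, and the windows before those were not searched. The INHBA window lies inside the span of its gene, which runs to 41705406. Capitals mark matches on either strand to 6 motifs: the SMAD palindrome GTCTAGAC, the CAGA element CAGACA, the AP-1 site TGANTCA, the cAMP response element TGACGTCA, the TATA box TATAAA and the Sp1 GC box GGGCGG. LTBP1 (chr2:32946703-32946952, plus strand) and TGFB1 (chr19:41353923-41354172, minus strand) come first, then INHBA (chr7:41703091-41703340, minus strand), TGFBR2 (chr3:30606106-30606355, plus strand) and TGFB2 (chr1:218345086-218345335, plus strand).
LTBP1: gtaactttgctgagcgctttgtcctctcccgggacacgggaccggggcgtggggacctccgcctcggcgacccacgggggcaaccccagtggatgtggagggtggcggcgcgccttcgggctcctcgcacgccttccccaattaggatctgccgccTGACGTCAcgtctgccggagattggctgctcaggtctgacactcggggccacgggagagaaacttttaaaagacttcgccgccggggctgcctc
TGFB1: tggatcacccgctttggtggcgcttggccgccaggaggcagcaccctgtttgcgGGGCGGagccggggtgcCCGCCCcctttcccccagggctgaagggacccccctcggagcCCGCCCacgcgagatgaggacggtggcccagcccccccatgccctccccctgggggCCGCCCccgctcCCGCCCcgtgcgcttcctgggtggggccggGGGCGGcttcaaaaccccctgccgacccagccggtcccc
INHBA: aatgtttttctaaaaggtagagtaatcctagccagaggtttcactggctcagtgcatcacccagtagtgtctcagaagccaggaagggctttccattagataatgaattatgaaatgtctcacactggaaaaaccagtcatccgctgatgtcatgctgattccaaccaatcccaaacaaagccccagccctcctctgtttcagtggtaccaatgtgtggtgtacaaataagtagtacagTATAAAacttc
TGFBR2: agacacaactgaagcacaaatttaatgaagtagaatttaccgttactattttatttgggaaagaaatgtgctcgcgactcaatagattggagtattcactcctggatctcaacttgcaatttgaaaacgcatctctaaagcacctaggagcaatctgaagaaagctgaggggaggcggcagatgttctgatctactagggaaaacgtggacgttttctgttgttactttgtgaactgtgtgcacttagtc
TGFB2: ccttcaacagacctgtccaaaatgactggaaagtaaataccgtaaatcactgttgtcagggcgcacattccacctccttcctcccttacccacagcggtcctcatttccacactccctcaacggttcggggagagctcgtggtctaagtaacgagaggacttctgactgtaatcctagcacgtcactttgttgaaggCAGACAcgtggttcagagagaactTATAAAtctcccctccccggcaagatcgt
The LTBP1 window held 1 cAMP response element, 94 bases from the start, a motif found in 1.77% of the 27305 promoters of the same length. INHBA held 1 TATA box 11 bases from the start, and TGFB2 held 1 at 29 bases, with 11.1% of promoters holding one. TGFB2 also held a CAGA element 53 bases from the start, which 13.6% of promoters share. TGFB1 held 6 GC boxes, a motif of 42.3% of promoters, and its window was 76.8% G and C. The TGFBR2 window matched no motif and was 40.8% G and C. Of the 4 genes not shown, SMAD3 held 4 GC boxes and SMAD2 held 3, and TGFBR1 and SMAD7 matched no motif. None of the windows searched held the palindrome, present in 0.176% of promoters, or the AP-1 site, present in 6.6%. The windows of the other starts may differ. The motifs do not overlap one another in these windows, and a match is a description of the letters, not of a bound site.

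Compared per kilobase of exon, TGFBR2, TGFB1 and SMAD3 were the most abundant of the set in DMSO cells, and TGFB2 and LTBP1 the least. TGFB1 stood at 38.4 ± 0.643 CPM per kb, SMAD3 at 34.1 ± 0.817 and TGFBR2 at 31.6 ± 2.71 (SD, n = 2 each). The libraries of SMAD3 and TGFBR2 lay close together and those of TGFB1 lay above them. INHBA followed at 8.56 ± 1.04 CPM per kb, TGFBR1 at 5.94 ± 0.596, SMAD7 at 1.81 ± 0.0296, TGFB2 at 1.16 ± 0.0489 and LTBP1 at 0.900 ± 0.0496 (SD, n = 2 each). With palbociclib TGFBR2 (52.7 ± 2.57 CPM per kb) and TGFB1 (51.0 ± 4.06) were above SMAD3 (32.0 ± 0.883), and LTBP1 (2.24 ± 0.0841) was above TGFB2 (1.19 ± 0.188) and within the spread of SMAD7 (2.36 ± 0.346). With GSK3326595 TGFBR2 (47.2 ± 3.51 CPM per kb) led, TGFB1 (34.5 ± 4.15) and SMAD3 (32.2 ± 0.763) did not differ beyond their spread, and LTBP1 (1.07 ± 0.0991) was lowest. Exon lengths are from GENCODE 29, which need not be the annotation of the counts. SMAD2 is left out of this order because its annotated exons span 34873 bases, including a very long untranslated end that need not be used here.

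**Figure D1:**
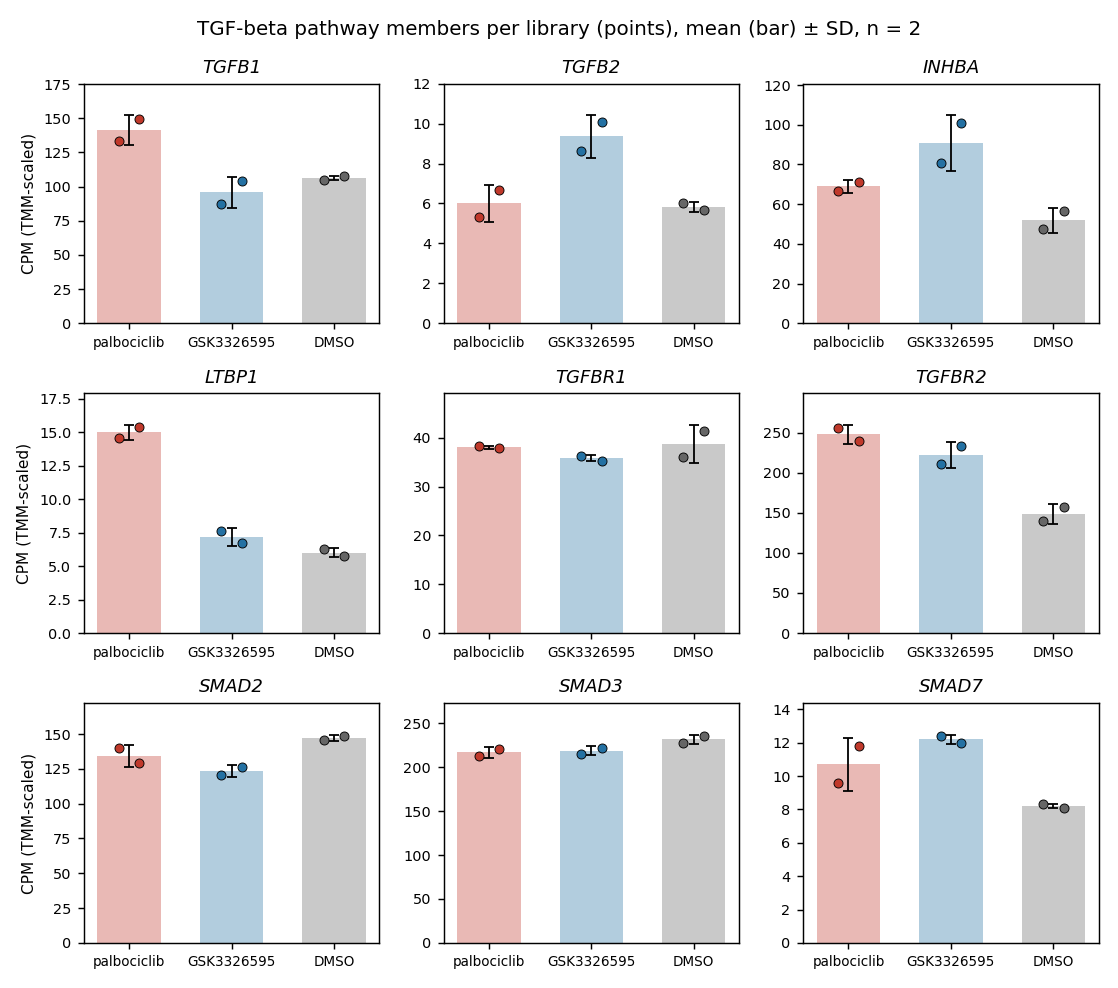
TMM-scaled CPM (y axis, linear, from 0) of the 9 genes in each library (points), with the group mean (bar) and SD (error bar, n = 2), for palbociclib, GSK3326595 and DMSO cells. LTBP1 stands at 14.6 and 15.4 CPM in the palbociclib libraries, above all other libraries, while TGFBR2 is above DMSO with both inhibitors.

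Palbociclib was compared with DMSO to see which transcripts of the pathway differ after CDK4 and CDK6 inhibition. LTBP1, TGFBR2, INHBA and TGFB1 rose: 4 of the set of 9 passed an adjusted p under 0.05 upwards and 0 downwards (edgeR quasi-likelihood test, Benjamini-Hochberg over all genes). Of all genes tested, 39.5% were called in either direction, 19.3% higher and 20.2% lower. The median log2 fold change was 0.38 over the 9 genes and -0.02 over all genes tested. No gene of the set was lower at an unadjusted p under 0.05 (0 genes) or by DESeq2 (0 genes).

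GSK3326595 was compared with DMSO to see which of the same transcripts differ after PRMT5 inhibition. TGFBR2, INHBA, TGFB2 and SMAD7 rose and SMAD2 fell, so that 4 genes were called higher and 1 lower, where 18.8% of all genes were called, 8.58% higher and 10.2% lower. The median log2 fold change was 0.25 over the 9 genes and -0.00 over all genes. In the direct comparison of palbociclib with GSK3326595, 2 genes were called higher with palbociclib (LTBP1 and TGFB1) and 2 lower (TGFB2 and INHBA), where 34.8% of all genes were called, 16.6% higher and 18.2% lower. The comparisons with DMSO share the DMSO libraries, so their values are set side by side and not counted as separate support for each other. In bulk RNA, fewer cells of one state and less RNA per cell cannot be told apart.

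**Figure D2:**
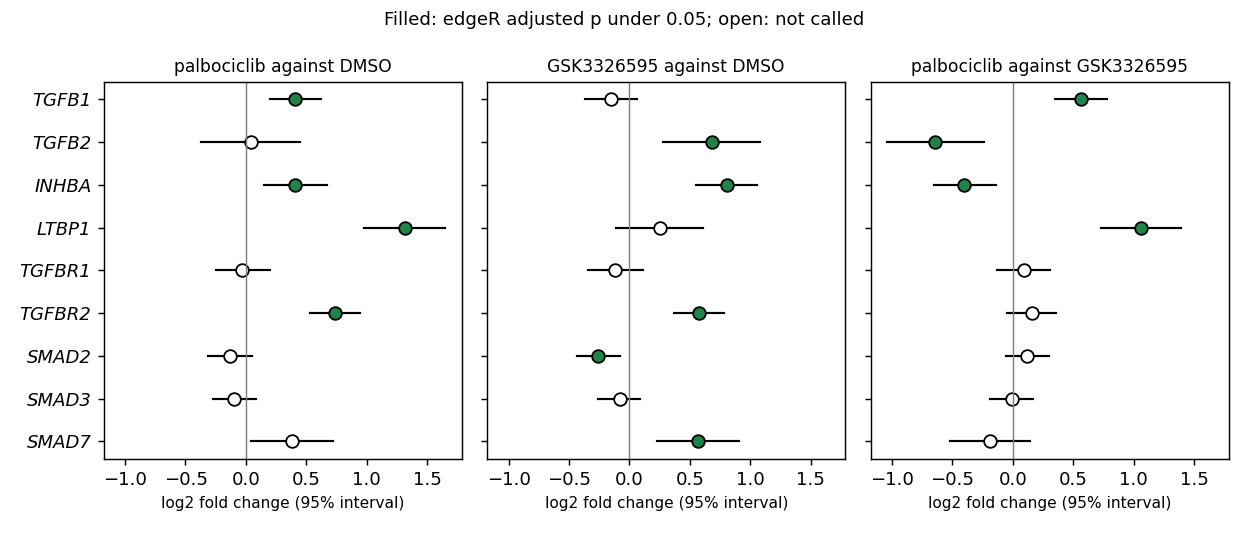
Log2 fold change (x axis) of the 9 genes in each comparison, with 95% intervals from the edgeR fit; filled points passed an adjusted p under 0.05. LTBP1 has the largest change of the set, 1.32 for palbociclib against DMSO, and TGFB2 and TGFB1 move apart between the inhibitors.

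Among the ligand genes of the set, TGFB1 was higher with palbociclib than in either other group. TGFB1 (Gene ID 7040; GRCh38 chromosome 19, 41330323 to 41353922), the most widely expressed TGF-beta isoform, had 133.3 and 149.2 CPM in palbociclib libraries and 87.5 and 103.8 CPM in GSK3326595 libraries, against 105.0 and 107.5 CPM in DMSO libraries. Both palbociclib libraries were above all others, and both GSK3326595 libraries were just below the DMSO ones. The log2 fold change was 0.41 ± 0.0969 (SE) for palbociclib against DMSO (1.33-fold, edgeR adjusted p = 0.00541). Without palbociclib replicate 2 that call ended (0.33, edgeR adjusted p = 0.0775). GSK3326595 against DMSO gave -0.15 ± 0.0980 (edgeR adjusted p = 0.310), which did not pass. Palbociclib against GSK3326595 gave 0.56 ± 0.0975 (1.48-fold, edgeR adjusted p = 0.00101), and this call held in all 13 alternative fits, though its size is below the 1.5-fold of the alternative rule, under which it is lost.

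TGFB2 moved with GSK3326595 instead. TGFB2 (Gene ID 7042; chromosome 1, 218345336 to 218444619), an isoform known from tissue remodelling and invasive melanoma, had 5.33 and 6.67 CPM in palbociclib libraries and 8.62 and 10.1 CPM in GSK3326595 libraries, against 6.02 and 5.67 CPM in DMSO libraries. The GSK3326595 libraries were above all others, while the palbociclib and DMSO libraries overlapped. GSK3326595 against DMSO gave a log2 fold change of 0.68 ± 0.185 (60.4% higher, edgeR adjusted p = 0.0244), palbociclib against DMSO 0.04 ± 0.190 (edgeR adjusted p = 0.886; 95% interval -0.37 to 0.45), and palbociclib against GSK3326595 -0.64 ± 0.183 (edgeR adjusted p = 0.0174). Its counts were low, between 105 and 174 reads, which alone gives a counting error of up to 9.76%. The call against DMSO ended without DMSO replicate 1 (0.70, edgeR adjusted p = 0.0821), without DMSO replicate 2 (0.64, edgeR adjusted p = 0.109) and without GSK3326595 replicate 2 (0.56, edgeR adjusted p = 0.106). The call between the inhibitors ended without palbociclib replicate 1 (-0.49, edgeR adjusted p = 0.172) and without GSK3326595 replicate 2 (-0.52, edgeR adjusted p = 0.0820). TGFB2 shares 1371 exon bases with the transcript TGFB2-OT1, which is listed at 0 in all 6 libraries. As a ratio of levels per kb, TGFB1 over TGFB2 was 45.7 and 40.8 with palbociclib, 18.5 and 18.7 with GSK3326595, and 31.8 and 34.6 with DMSO, 3 ranges that do not overlap.

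INHBA was higher with both inhibitors and highest with GSK3326595. INHBA (Gene ID 3624; chromosome 7, 41685114 to 41705406), which encodes the activin A subunit, had 66.6 and 71.4 CPM in palbociclib libraries and 80.9 and 100.9 CPM in GSK3326595 libraries, against 47.4 and 56.3 CPM in DMSO libraries. No library of one group overlapped those of another. GSK3326595 against DMSO gave a log2 fold change of 0.81 ± 0.118 (1.75-fold, edgeR adjusted p = 0.000719), which held in all 13 alternative fits. Palbociclib against DMSO gave 0.41 ± 0.118 (1.33-fold, edgeR adjusted p = 0.0154), a call that ended without DMSO replicate 1 (0.29, edgeR adjusted p = 0.141) and without palbociclib replicate 2 (0.36, edgeR adjusted p = 0.105). Palbociclib against GSK3326595 gave -0.40 ± 0.116 (edgeR adjusted p = 0.0196). This last call ended without palbociclib replicate 1 (-0.34, edgeR adjusted p = 0.140), without palbociclib replicate 2 (-0.45, edgeR adjusted p = 0.0607) and without GSK3326595 replicate 2 (-0.23, edgeR adjusted p = 0.156).

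LTBP1 had the largest change of the set. LTBP1 (Gene ID 4052; chromosome 2, 32946953 to 33399509) encodes a matrix protein that binds the latent ligand complex. It had 14.6 and 15.4 CPM in palbociclib libraries and 7.63 and 6.69 CPM in GSK3326595 libraries, against 6.24 and 5.77 CPM in DMSO libraries. The palbociclib libraries were far above the others, and the GSK3326595 libraries were only slightly above the DMSO ones. Palbociclib against DMSO gave a log2 fold change of 1.32 ± 0.154 (2.49-fold, edgeR adjusted p = 4.19e-05), and 3.34% of all tested genes had a higher one. Palbociclib against GSK3326595 gave 1.06 ± 0.153 (2.09-fold, edgeR adjusted p = 0.000291). Both calls held in all 13 alternative fits, while GSK3326595 against DMSO gave 0.25 ± 0.165 (edgeR adjusted p = 0.313; 95% interval -0.11 to 0.61). The counts lay between 111 and 320 reads. The library kit does not mark strand, and 249 exon bases of LTBP1 are shared with an antisense transcript, AC019127.1, so reads there could come from either. The ratio of TGFB1 to LTBP1 levels per kb was 22.1 and 23.4 with palbociclib, 27.7 and 37.4 with GSK3326595, and 40.6 and 44.9 with DMSO.

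The receptors differed from each other. TGFBR2 (Gene ID 7048; chromosome 3, 30606356 to 30694142), the type II receptor that binds the ligand, had 256.5 and 239.4 CPM in palbociclib libraries and 210.5 and 233.9 CPM in GSK3326595 libraries, against 139.8 and 157.9 CPM in DMSO libraries. Every treated library was above both DMSO libraries. Palbociclib against DMSO gave a log2 fold change of 0.74 ± 0.0950 (1.67-fold, edgeR adjusted p = 8.67e-05) and GSK3326595 against DMSO 0.58 ± 0.0951 (1.49-fold, edgeR adjusted p = 0.00158). Both calls held in all 13 alternative fits, but under the alternative 1.5-fold rule the GSK3326595 call is lost. The direct comparison of the inhibitors did not pass (0.16 ± 0.0941, edgeR adjusted p = 0.217), with a 95% interval of -0.05 to 0.36. TGFBR1 (Gene ID 7046; chromosome 9, 99103647 to 99154192), the type I receptor kinase, had 38.3 and 37.9 CPM in palbociclib libraries and 36.2 and 35.3 CPM in GSK3326595 libraries, against 36.0 and 41.5 CPM in DMSO libraries. Its groups overlapped with DMSO, and the log2 fold changes against DMSO were -0.03 ± 0.102 (95% interval -0.25 to 0.20) for palbociclib and -0.12 ± 0.103 (95% interval -0.34 to 0.11) for GSK3326595, neither of which passed. The ratio of TGFBR2 to TGFBR1 per kb was 9.29 and 8.77 with palbociclib and 8.07 and 9.19 with GSK3326595, against 5.39 and 5.28 with DMSO.

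The receptor-activated SMADs varied little. SMAD3 (Gene ID 4088; chromosome 15, 67065602 to 67195169) had 212.8 and 221.2 CPM in palbociclib libraries and 215.1 and 222.5 CPM in GSK3326595 libraries, against 227.9 and 235.7 CPM in DMSO libraries. Both treated groups were slightly below DMSO, by log2 fold changes of -0.10 ± 0.0818 for palbociclib (95% interval -0.27 to 0.08) and -0.08 ± 0.0820 for GSK3326595 (95% interval -0.26 to 0.09), and neither passed. SMAD2 (Gene ID 4087; chromosome 18, 47808957 to 47930872) had 140.0 and 128.9 CPM in palbociclib libraries and 120.4 and 126.5 CPM in GSK3326595 libraries, against 145.8 and 148.9 CPM in DMSO libraries. All treated SMAD2 libraries were below both DMSO libraries. GSK3326595 against DMSO gave a SMAD2 log2 fold change of -0.26 ± 0.0823 (0.838-fold, edgeR adjusted p = 0.0490), at the edge of the threshold, and the call ended in 10 of 13 alternative fits, among them each fit with 1 library left out, with edgeR adjusted p-values up to 0.186. Palbociclib against DMSO gave -0.13 ± 0.0819 for SMAD2 (edgeR adjusted p = 0.218). SMAD2 and SMAD3 had at least 2068 and 3694 reads in every library, so counting error is at most 2.20% and 1.65%.

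SMAD7, the inhibitory SMAD, was higher with GSK3326595. SMAD7 (Gene ID 4092; chromosome 18, 48919853 to 48950965) had 9.59 and 11.8 CPM in palbociclib libraries and 12.4 and 12.0 CPM in GSK3326595 libraries, against 8.30 and 8.11 CPM in DMSO libraries. All treated libraries were above both DMSO libraries, and the palbociclib libraries were spread more widely than the others. GSK3326595 against DMSO gave a log2 fold change of 0.57 ± 0.156 (1.49-fold, edgeR adjusted p = 0.0250), a call that ended without DMSO replicate 1 (0.56, edgeR adjusted p = 0.0948) and without DMSO replicate 2 (0.55, edgeR adjusted p = 0.0999). Palbociclib against DMSO gave 0.38 ± 0.156 (edgeR adjusted p = 0.0691) and did not pass, though it did without GSK3326595 replicate 1 (0.39, edgeR adjusted p = 0.0471). Palbociclib against GSK3326595 gave -0.19 ± 0.152 (edgeR adjusted p = 0.368; 95% interval -0.52 to 0.14), so the effects of the inhibitors on SMAD7 were not told apart. SMAD7 had between 149 and 246 reads, a counting error of up to 8.19%.

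TGF-beta target genes outside the set were examined in a list of 26, of which 25 passed the filter on low counts and CDKN2B was listed at 0 in every library. This list, like the others, was chosen with earlier results of these data known, so its counts and medians are descriptions and not a test of the list. With palbociclib 14 of the 25 were called higher and 3 lower against DMSO, and with GSK3326595 11 were called higher and 1 lower. The median log2 fold changes were 0.44 and 0.45, against -0.02 and -0.00 over all genes. Over all genes 19.3% were called higher and 20.2% lower with palbociclib, and 8.58% and 10.2% with GSK3326595. The higher count with palbociclib fell without palbociclib replicate 2, and that with GSK3326595 fell without GSK3326595 replicate 2. The higher counts over all genes fell as well in the same fits. PMEPA1, a target gene whose product retains SMAD2 and SMAD3, had 78.8 and 84.0 CPM in palbociclib libraries and 45.4 and 45.6 CPM in GSK3326595 libraries, against 18.6 and 21.5 CPM in DMSO libraries. The 3 groups were fully separate. The log2 fold changes of PMEPA1 were 2.02 ± 0.103 with palbociclib (edgeR adjusted p = 1.49e-07), 1.18 ± 0.104 with GSK3326595 (edgeR adjusted p = 3.85e-05) and 0.84 ± 0.0974 between palbociclib and GSK3326595 (edgeR adjusted p = 8.10e-05).

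Other targets rose with both inhibitors but by different amounts. The matrix genes TGFBI and FN1 rose most with palbociclib. TGFBI had 860.7 and 899.3 CPM with palbociclib and 461.8 and 382.2 CPM with GSK3326595, against 260.4 and 232.6 CPM with DMSO. Its log2 fold change against DMSO was 1.84 ± 0.114 with palbociclib (edgeR adjusted p = 3.14e-07) and 0.78 ± 0.112 with GSK3326595 (edgeR adjusted p = 0.000654). FN1, which encodes fibronectin, had a log2 fold change of 1.38 ± 0.112 with palbociclib (edgeR adjusted p = 2.27e-06) and 0.35 ± 0.111 with GSK3326595 (edgeR adjusted p = 0.0456), and the GSK3326595 call ended in 6 of 13 alternative fits (edgeR adjusted p up to 0.184). ACTA2, the smooth muscle actin gene, had 9.39 and 8.21 CPM with palbociclib and 18.7 and 21.0 CPM with GSK3326595, against 5.07 and 3.64 CPM with DMSO. It was highest with GSK3326595, by a log2 fold change of 2.19 ± 0.180 against DMSO (edgeR adjusted p = 2.57e-05). With palbociclib it was called higher than DMSO as well (1.02 ± 0.187, edgeR adjusted p = 0.00113). Palbociclib against GSK3326595 gave -1.17 ± 0.164 (edgeR adjusted p = 0.000243).

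COL1A1 and IL11 were called in opposite directions with the inhibitors. COL1A1, a fibrillar collagen gene, had 6.65 and 5.95 CPM with palbociclib and 28.4 and 26.3 CPM with GSK3326595, against 13.9 and 12.5 CPM with DMSO. It fell with palbociclib (-1.07 ± 0.140, edgeR adjusted p = 9.48e-05) and rose with GSK3326595 (1.05 ± 0.126, edgeR adjusted p = 0.000197). IL11, a cytokine gene, had 19.8 and 23.6 CPM with palbociclib and 54.4 and 71.2 CPM with GSK3326595, against 35.6 and 50.6 CPM with DMSO. IL11 fell with palbociclib (-0.99 ± 0.172, edgeR adjusted p = 0.000783), and its rise with GSK3326595 (0.54 ± 0.165, edgeR adjusted p = 0.0397) ended without DMSO replicate 1 (0.29, edgeR adjusted p = 0.305) and without GSK3326595 replicate 2 (0.33, edgeR adjusted p = 0.187). TSC22D1, a transcriptional regulator, differed between palbociclib and GSK3326595 by 0.95 ± 0.0849 (edgeR adjusted p = 1.58e-05). Against DMSO it rose with palbociclib (0.74 ± 0.0843, edgeR adjusted p = 3.40e-05) and did not pass with GSK3326595 (-0.21 ± 0.0848, edgeR adjusted p = 0.111). ZEB1, a repressor of epithelial genes, fell with palbociclib (-0.34 ± 0.104, edgeR adjusted p = 0.0219) and with GSK3326595 (-0.38 ± 0.105, edgeR adjusted p = 0.0262). The palbociclib call of ZEB1 ended without DMSO replicate 2 (edgeR adjusted p = 0.202), without either palbociclib replicate (0.156 and 0.0722) and with DESeq2 (adjusted p = 0.0529). Its GSK3326595 call ended without DMSO replicate 2 (edgeR adjusted p = 0.167) and without GSK3326595 replicate 1 (0.120). Between the inhibitors, 8 of the 25 target genes were called higher and 7 lower with palbociclib (16.6% and 18.2% of all genes). The lower count fell without palbociclib replicate 1, as did that over all genes.

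**Figure D3:**
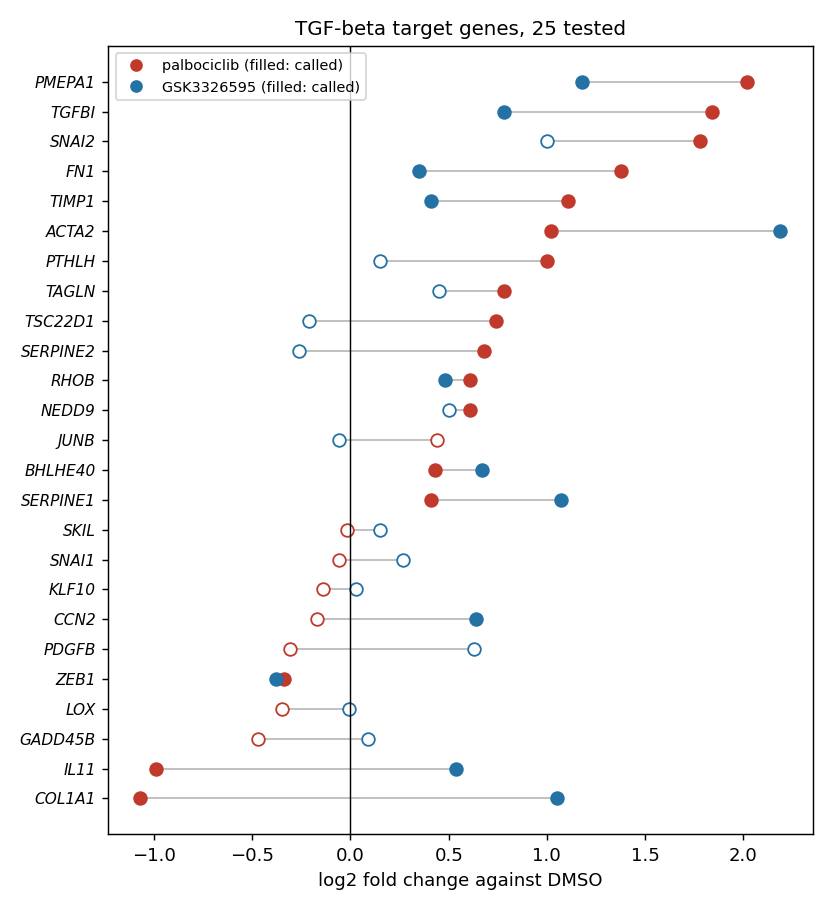
Log2 fold change against DMSO (x axis) of the 25 tested TGF-beta target genes, ordered by the palbociclib value, with palbociclib in red and GSK3326595 in blue; filled points passed an edgeR adjusted p under 0.05. PMEPA1 is the highest with palbociclib (2.02) and ACTA2 with GSK3326595 (2.19), and COL1A1 lies on opposite sides of 0.

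Genes of ligand latency and activation were measured in 16 of 18 cases beside LTBP1. With palbociclib 5 were called higher and 1 lower (19.3% and 20.2% of all genes), and with GSK3326595 4 higher and 3 lower (8.58% and 10.2% of all genes), with median log2 fold changes of 0.14 and 0.00. The higher count with palbociclib fell without either palbociclib replicate, as did that over all genes. The single lower call was absent (0) when DMSO replicate 1 or palbociclib replicate 2 was left out, and there were 2 when DMSO replicate 2 was. LTBP3, a paralog of LTBP1 that also binds latent ligand, had 1015.4 and 947.1 CPM with palbociclib and 422.0 and 424.8 CPM with GSK3326595, against 471.5 and 429.0 CPM with DMSO. Like LTBP1 it was high in palbociclib libraries (1.12 ± 0.0984, edgeR adjusted p = 4.20e-06) and did not pass with GSK3326595 (-0.09 ± 0.0977, edgeR adjusted p = 0.575). LTBP2, a paralog that does not bind latent TGF-beta, had 31.6 and 27.8 CPM with palbociclib and 64.9 and 52.7 CPM with GSK3326595, against 41.7 and 38.3 CPM with DMSO. It was higher with GSK3326595 (0.56 ± 0.119, edgeR adjusted p = 0.00740), and its fall with palbociclib (-0.43 ± 0.121, edgeR adjusted p = 0.0141) ended without DMSO replicate 1 (-0.37, edgeR adjusted p = 0.0734) and without palbociclib replicate 2 (-0.34, edgeR adjusted p = 0.132).

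The matrix scaffold gene FBN1, whose fibrillin holds the latent complexes, rose with palbociclib (0.90 ± 0.0864, edgeR adjusted p = 8.49e-06) and with GSK3326595 (0.46 ± 0.0866, edgeR adjusted p = 0.00352). THBS1, an activator of latent TGF-beta, had 2386.5 and 2631.8 CPM with palbociclib and 3149.8 and 3725.7 CPM with GSK3326595, against 1597.7 and 1902.1 CPM with DMSO. All treated libraries were above DMSO. THBS1 rose with GSK3326595 (0.97 ± 0.142, edgeR adjusted p = 0.000698), and its palbociclib call (0.52 ± 0.141, edgeR adjusted p = 0.0114) ended without DMSO replicate 1 (0.40, edgeR adjusted p = 0.120) and without palbociclib replicate 2 (0.45, edgeR adjusted p = 0.117). ITGB8, the beta subunit of an integrin that activates latent TGF-beta, had 392.9 and 306.8 CPM with palbociclib and 163.5 and 185.6 CPM with GSK3326595, against 263.3 and 244.7 CPM with DMSO. It fell with GSK3326595 (-0.54 ± 0.118, edgeR adjusted p = 0.00850) and rose with palbociclib (0.46 ± 0.117, edgeR adjusted p = 0.00805), the rise ending without palbociclib replicate 1 (0.28, edgeR adjusted p = 0.140). ITGB3, another integrin beta subunit, fell with GSK3326595 as well (-0.48 ± 0.0862, edgeR adjusted p = 0.00274).

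Other ligands and soluble antagonists were tested in 10 of 13 cases, with 3 called higher and 3 lower with palbociclib (19.3% and 20.2% of all genes) and 1 higher and 2 lower with GSK3326595 (8.58% and 10.2% of all genes). The median log2 fold changes were 0.06 and 0.32, and the single higher call with GSK3326595 is near the share over all genes. GDF11, a ligand that signals through SMAD2 and SMAD3, had 98.4 and 95.1 CPM with palbociclib and 38.6 and 43.5 CPM with GSK3326595, against 60.4 and 53.2 CPM with DMSO. It rose with palbociclib (0.77 ± 0.0962, edgeR adjusted p = 6.88e-05) and was lower with GSK3326595 (-0.47 ± 0.0994, edgeR adjusted p = 0.00723), the fall ending without DMSO replicate 1 (-0.40, edgeR adjusted p = 0.0584). FSTL1, a secreted follistatin-like protein gene, went the other way, at -0.75 ± 0.0929 with palbociclib (edgeR adjusted p = 6.25e-05) and 0.46 ± 0.0910 with GSK3326595 (edgeR adjusted p = 0.00516). BGN, a proteoglycan that binds TGF-beta, fell with palbociclib (-1.33 ± 0.151, edgeR adjusted p = 3.11e-05). TGFB3, another TGF-beta isoform gene, had 3.96 and 4.37 CPM with palbociclib and 2.68 and 2.74 CPM with GSK3326595, against 2.29 and 1.77 CPM with DMSO. It rose with palbociclib (1.04 ± 0.250, edgeR adjusted p = 0.00595) and did not pass with GSK3326595 (0.42 ± 0.266, edgeR adjusted p = 0.299). The palbociclib call of TGFB3 ended without DMSO replicate 2 (0.89) and without palbociclib replicate 2 (0.97). FST, which encodes the activin antagonist follistatin, was at 76.3 and 96.5 CPM with palbociclib and 77.5 and 98.2 CPM with GSK3326595, against 107.5 and 159.2 CPM with DMSO. All treated libraries were below both DMSO libraries, which differed from each other. The palbociclib call of FST (-0.63 ± 0.169, edgeR adjusted p = 0.0114) ended without DMSO replicate 2 (edgeR adjusted p = 0.183), without palbociclib replicate 1 (0.104) and with DESeq2 (adjusted p = 0.119). Its GSK3326595 call (-0.60 ± 0.170, edgeR adjusted p = 0.0286) ended without DMSO replicate 2 (edgeR adjusted p = 0.256), without GSK3326595 replicate 1 (0.0723) and with DESeq2 (adjusted p = 0.179). The higher count with palbociclib fell without DMSO replicate 2, as did that over all genes. The lower count with GSK3326595 fell without either DMSO replicate or without GSK3326595 replicate 1. Over all genes the lower count fell too, though only slightly without GSK3326595 replicate 1.

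Of the remaining receptors and co-receptors, 6 of 9 tested were called higher and 1 lower with palbociclib (19.3% and 20.2% of all genes), with a median log2 fold change of 0.48. The activin receptor genes ACVR1B (-0.08) and ACVR2A (-0.10) did not pass. The higher count fell without DMSO replicate 2 or palbociclib replicate 2, as did that over all genes. BAMBI, a decoy receptor and itself a target gene, had 14.2 and 13.0 CPM with palbociclib and 5.12 and 5.12 CPM with GSK3326595, against 4.90 and 4.32 CPM with DMSO. The palbociclib libraries stood apart, and BAMBI rose by 1.56 ± 0.167 against DMSO (edgeR adjusted p = 2.12e-05) and by 1.41 ± 0.166 against GSK3326595 (edgeR adjusted p = 9.12e-05). The co-receptor genes CD109 (0.55 ± 0.0897, edgeR adjusted p = 0.000474) and ENG (0.48 ± 0.0962, edgeR adjusted p = 0.00210) also rose with palbociclib. ACVR2B, an activin type II receptor gene, had 26.3 and 26.9 CPM with palbociclib and 52.3 and 44.5 CPM with GSK3326595, against 51.6 and 54.6 CPM with DMSO, and fell by 1.00 on the log2 scale with palbociclib (SE 0.107, edgeR adjusted p = 2.08e-05). With GSK3326595 0 of these 9 genes were called by edgeR, where 8.58% of all genes were called higher and 10.2% lower. At an unadjusted p under 0.05, 1 was higher and 1 lower, and DESeq2 called 0. A replicate block did give calls among these receptors, as described below.

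SMAD partners and regulators of SMAD turnover were all 18 tested, with 2 called higher and 4 lower with palbociclib and a median log2 fold change of -0.09. Over all genes 19.3% were called higher and 20.2% lower, so these counts are near or below the background. SMAD4, the common partner of the receptor-activated SMADs, had 66.1 and 65.4 CPM with palbociclib and 91.3 and 88.3 CPM with GSK3326595, against 95.5 and 98.2 CPM with DMSO. It was lowest with palbociclib, by a log2 fold change of -0.56 ± 0.0789 against DMSO (edgeR adjusted p = 0.000168) and -0.45 ± 0.0791 against GSK3326595 (edgeR adjusted p = 0.00111). NEDD4L, a ubiquitin ligase that acts on activated SMAD2 and SMAD3, fell with palbociclib too (-0.49 ± 0.0803, edgeR adjusted p = 0.000515), and STUB1, another ubiquitin ligase, rose (0.54 ± 0.0865, edgeR adjusted p = 0.000444). The lower count fell without DMSO replicate 2 or without palbociclib replicate 1, and the higher count fell without palbociclib replicate 2. The counts over all genes fell as well in the same fits. With GSK3326595 0 of the 18 were called by edgeR, where 8.58% of all genes were called higher and 10.2% lower. At an unadjusted p under 0.05, 1 was higher and 2 lower, and DESeq2 called 0. A replicate block did give calls in this list, as described below. PPM1A, a phosphatase gene, lay at the threshold (-0.31, edgeR adjusted p = 0.0524) and was called lower with library totals in place of TMM (edgeR adjusted p = 0.0461) and with a filter at 1 CPM (edgeR adjusted p = 0.0457).

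The BMP branch, which signals through other SMADs, was tested in 17 of 19 cases, with 5 called higher and 3 lower with palbociclib and 3 higher and 2 lower with GSK3326595 (median log2 fold changes 0.05 and 0.05). Over all genes 19.3% were higher and 20.2% lower with palbociclib and 8.58% and 10.2% with GSK3326595, so the counts of lower BMP genes are near the background. The ligand gene BMP4 had 24.0 ± 8.89 CPM with palbociclib and 7.63 ± 2.31 CPM with GSK3326595, against 4.86 ± 0.770 CPM with DMSO (SD, n = 2 each), and rose by 2.30 ± 0.265 with palbociclib (edgeR adjusted p = 3.59e-05). ID3, a BMP target gene, had 54.9 and 89.7 CPM with palbociclib and 57.2 and 80.1 CPM with GSK3326595, against 21.6 and 35.0 CPM with DMSO. Every treated library was above both DMSO libraries, with log2 fold changes of 1.35 ± 0.244 for palbociclib (edgeR adjusted p = 0.000990) and 1.27 ± 0.245 for GSK3326595 (edgeR adjusted p = 0.00414), although replicate 2 was the higher library in each group. The ligand gene BMP2 fell with GSK3326595 (-0.81 ± 0.142, edgeR adjusted p = 0.00233). SMAD5, a BMP-activated SMAD, fell with palbociclib (-0.53 ± 0.0777, edgeR adjusted p = 0.000233), and its fall with GSK3326595 (-0.29 ± 0.0776, edgeR adjusted p = 0.0216) ended in 6 of 13 alternative fits (edgeR adjusted p up to 0.103). The lower count with GSK3326595 fell when any single library other than GSK3326595 replicate 1 was left out, as did that over all genes.

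**Figure D4:**
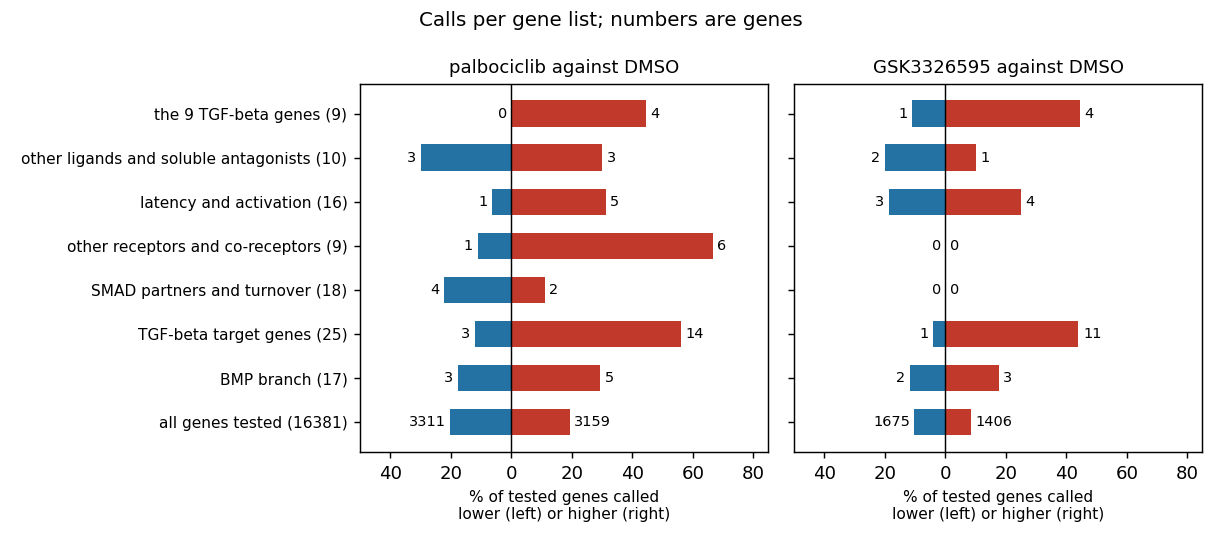
Share of the tested genes of each list called lower (left, blue) or higher (right, red) against DMSO, in percent, with the number of genes beside each bar and all 16381 genes in the last row. With palbociclib 6 of 9 other receptors and 14 of 25 target genes are called higher, and with GSK3326595 11 of 25 target genes. The lists were chosen with earlier results of these data known, so the shares are descriptions.

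Genes whose 6 values most resembled those of LTBP1 and INHBA, the genes of the set with the smallest adjusted p in the palbociclib and GSK3326595 comparisons, were picked from 13170 genes of at least 2 CPM on average. The measure was the root mean square difference of log2 CPM, each gene set against its own DMSO mean, over the 6 libraries. CFI was nearest to LTBP1 at 0.0537, followed by ZFHX2 at 0.0919 and TAS1R3 at 0.102. CFI had log2 fold changes of 1.41 with palbociclib and 0.30 with GSK3326595. TMA7 was nearest to INHBA at 0.0593, followed by APOBEC3C at 0.0662 and EXOC3-AS1 at 0.0812. These distances describe likeness in these libraries and carry no test.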

How the data were processed

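Total RNA from A375 cells was depleted of ribosomal RNA and made into libraries with a kit that does not mark strand, per the labels' protocols. The authors deposited raw read counts per NCBI Gene ID, 1 table for each of 6 libraries, with no normalization. The submitters' processing notes name featureCounts 1.6.2, HISAT2, cutadapt 1.7, CASAVA 1.8.2, limma and hg38. For the annotation, strand setting and multiply aligned reads, the choice is not given in the sources used here. Symbols came from RefSeq (27745 IDs matched, 650 did not, at most 0.508% of counts).

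Counts were tested with edgeR 4.0.16 in R 4.3.3: filterByExpr with a minimum count of 10, TMM, a quasi-likelihood fit with 1 coefficient per group over 6 libraries (3 residual degrees of freedom), two-sided, and Benjamini-Hochberg adjustment over 16381 genes. The common biological coefficient of variation was 0.0839. Each SE is the absolute log2 fold change over the root of its F statistic. Counting errors given cover reads only. The procedure was run on simulated counts that had the same spread for every gene and no replicate effect. That run does not show how it performs at the spread of these libraries. The genes and lists were chosen with earlier results of these data known. From each other list, the called genes with the smallest p were eligible for naming: 3 per direction for each inhibitor against DMSO and 2 per direction between the inhibitors; not all are printed. The alternatives were DESeq2 1.42.0, other size factors, other filters, only the compared libraries, a replicate block and leaving out each library (13 fits), and a fold threshold, which is not counted among the 13.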

Additional observations from a re-analysis of the deposited data

How the results depend on the processing

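Among the genes of the set and those named as called from the pathway lists, no call reversed its direction under these alternatives. The single lower call of the set with GSK3326595, SMAD2, was 0 with DESeq2, with edgeR on DESeq2 size factors, without the filter on low counts and in the 4 compared libraries alone. Requiring a 1.5-fold change as well left 2 genes of the set higher with palbociclib against DMSO (1703 of all genes higher and 1676 lower, against 3159 and 3311), 2 higher and 0 lower with GSK3326595 against DMSO (626 and 788 of all genes, against 1406 and 1675), and 1 higher and 1 lower with palbociclib against GSK3326595 (1479 and 1247 of all genes, against 2718 and 2989). Under the fold rule fewer calls can pass by construction, and TGFBR2 and SMAD7 with GSK3326595 and TGFB1 between the inhibitors are among those lost. With 1 library left out, which leaves a group with 1 library whose spread is assumed to be like that of the others, genes of the set called with palbociclib against DMSO ranged from 2 to 5 higher and 0 to 0 lower (all genes 2043 to 3651 and 1964 to 3693), with GSK3326595 against DMSO from 2 to 4 higher and 0 to 0 lower (all genes 637 to 1578 and 1072 to 1652), and with palbociclib against GSK3326595 from 2 to 2 higher and 0 to 2 lower (all genes 1678 to 2854 and 1632 to 2688). The cause of these shifts was not tested beyond the smaller number of libraries.

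The replicate numbers share only a number, with 2 per group and no label that ties them to a culture or day. Same-numbered libraries deviated together with correlations of 0.14 to 0.34 over 16381 genes. With the replicate block, GSK3326595 against DMSO called 2826 of the 16381 genes higher and 2943 lower, against 1406 and 1675 without it. Of the 18 SMAD partners and turnover genes 3 were then higher and 4 lower, and of the 9 other receptors 1 higher and 2 lower, where the fit without the block called 0. These list counts are near the shares over all genes in the fit with the block. Of the set, SMAD7 passed for palbociclib against DMSO (0.38, edgeR adjusted p = 0.0222), as did TGFBR2 for palbociclib against GSK3326595 (0.16, edgeR adjusted p = 0.0496). Low counts limit TGFB2, LTBP1 and SMAD7, and RNA levels say nothing of secreted ligand or SMAD phosphorylation.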

Other observations

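Markers outside the pathway were called in both directions with palbociclib and were not tested for a part in the results above. LYZ, a lysozyme gene usually read as a myeloid marker, had 14.1 and 13.6 CPM with palbociclib and 3.49 and 6.34 CPM with GSK3326595, against 4.63 and 4.53 CPM with DMSO, and rose with palbociclib by a log2 of 1.59 (edgeR adjusted p = 0.000168). LUM, a small proteoglycan gene of fibroblasts, had 7.16 and 6.91 CPM with palbociclib and 2.21 and 3.49 CPM with GSK3326595, against 1.62 and 1.66 CPM with DMSO, a log2 rise of 2.10 with palbociclib (edgeR adjusted p = 6.54e-05). KRT14, a basal keratin gene, had 6.50 and 8.35 CPM with palbociclib and 2.45 and 2.91 CPM with GSK3326595, against 2.12 and 1.98 CPM with DMSO (log2 1.86, edgeR adjusted p = 7.98e-05). S100B, a neural crest and melanoma marker, had 10.6 and 10.9 CPM with palbociclib and 3.44 and 3.96 CPM with GSK3326595, against 3.68 and 3.12 CPM with DMSO (log2 1.66, edgeR adjusted p = 3.15e-05). PDGFRB, a pericyte and fibroblast receptor gene, had 17.4 and 14.0 CPM with palbociclib and 26.1 and 21.7 CPM with GSK3326595, against 28.3 and 20.8 CPM with DMSO, and fell with palbociclib (log2 -0.64, edgeR adjusted p = 0.00805). The endothelial gene PECAM1 (log2 -0.96, edgeR adjusted p = 0.0401) and the simple epithelial keratin gene KRT8 (log2 -0.36, edgeR adjusted p = 0.00734) fell with palbociclib as well. These 7 are all the markers called with palbociclib, where 39.5% of all genes were called. The markers tested were 5 of melanoma, 5 of fibroblast and endothelium, 2 of blood cells and 3 of epithelium. With GSK3326595 against DMSO, the only marker called was MITF, which was higher (0.49 ± 0.0901, edgeR adjusted p = 0.00324), where 18.8% of all genes were called. Palbociclib against GSK3326595 gave -0.50 ± 0.0898 for MITF (edgeR adjusted p = 0.00124) and 0.63 ± 0.133 for SOX10 (edgeR adjusted p = 0.00315). PECAM1 had only 61 and 77 reads with DMSO and 43 and 34 with palbociclib. The marker calls were not followed through the alternative fits.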
